A study of Gallus gallus with 2 samples.

Results

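The genes described here encode the mitochondrial respiratory chain and ATP synthase: the subunits and assembly factors of complexes I to V and cytochrome c. They were chosen by symbol, as genes with 1 annotated symbol beginning with NDUF, SDHA to SDHD, SDHAF, UQCR, UQCC, COX and a digit, or ATP5, or being CYC or CYCS. This gave 90 of the 13008 named genes on the array, with 160 probe sets. They comprised 41 genes of complex I, 6 of complex II, 10 of complex III, 18 of complex IV, 14 of complex V and the cytochrome c gene CYCS. The symbols were those of the array's annotation, in which the ATP synthase genes mostly keep their older names. NDUFA4 was placed in complex IV, where the protein is now assigned, and COX7A2L and ATP5S were grouped with the assembly factors because they act on the complexes without being standing subunits.

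The samples were the germinal disc region, a small spot on the yolk where the oocyte nucleus lies, taken from yellow follicles F5 to F7 of laying hens at 25 weeks of age. One group of hens had the bursa of Fabricius, the site of B cell development in birds, removed surgically on day 17 to 18 of incubation (Bx), and the other was the control group. The labels give no strain, and do not say whether control embryos had a sham operation. For each group, 9 discs of 3 birds were pooled on 1 Affymetrix Chicken Genome Array, so there was no replicate, no p-value could be computed, and differences between birds were not measured.

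The respiratory chain passes electrons from NADH (complex I) and succinate (complex II) through ubiquinone to complex III, then by cytochrome c to complex IV, which reduces oxygen. Complexes I, III and IV pump protons across the inner mitochondrial membrane, and complex V uses that gradient to make ATP. Apart from complex II, each complex joins subunits encoded in the nucleus with others encoded in mitochondrial DNA, and each needs dedicated assembly factors. Some of these factors insert haem, flavin, iron-sulfur clusters or copper. Oocytes hold very many mitochondria and depend on them for ATP, and steroid-making granulosa cells use them for the initial step of hormone synthesis. The members measured here are all encoded in the nucleus. The mitochondrially encoded subunits (COX1, COX2, COX3, ND1 and the others) and the nuclear genes SDHB, SDHC, NDUFB11, ATP5D, ATP5L, ATP5SL, ATP5F1AW and COX7A2 were not analysed here.

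Where a gene had several probe sets, the one with the highest log2 signal averaged over the arrays gave its value, a signal intensity, and the ratio is that of Bx over control. A gene counted as measured when its signal exceeded the background floor on both arrays (42.6 for the control and 36.4 for the Bx array, from probe sets for other species). Of the 90 genes 88 were measured, and 58 of these lay in the brightest quartile of all measured genes. The spread of the ratios depended on brightness: over all genes, the SD of the log2 ratio was 0.49, 0.31, 0.21 and 0.15 from the dimmest to the brightest quartile. This SD over genes holds differences between the pools as well as error, and is not the error of a single ratio. The SD between probe sets of 1 gene, pooled over the 36 members with at least 2 measured probe sets, was 0.30.

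The discs carried RNA of granulosa cells as well as of the oocyte, and most markers of the 2 sources differed in opposite directions between the pools. Granulosa markers such as FSHR (signal 2820 in the control pool, 2336 after bursectomy) and CYP11A1 (7006 and 5538) were measured in 16 of 17 cases, with a median log2 ratio of -0.16. Of the 16, 13 were lower in the Bx pool, where 47.6% of all measured genes were lower. Of 13 oocyte markers 12 were measured, among them BTG4 (924 and 1027), with a median of 0.15, and 11 of the 12 were higher, against 52.4% of all measured genes. The 2 in the brightest quartile of genes went opposite ways, DAZL higher (2743 and 3027) and ZP2 lower (2089 and 1952). Most oocyte markers were dim, with a median control signal of 241, against 4684 for the granulosa markers. The defining oocyte genes DDX4, GDF9 and BMP15 were dim, at 43.6, 59.0 and 90.3 in the control pool. In pooled tissue, fewer cells of a type and less RNA per cell cannot be told apart, and the part of these differences in the ratios below was not tested. Markers of theca and stroma, of endothelium, of leukocytes and thrombocytes and of erythrocytes had median log2 ratios of -0.05, 0.34, -0.18 and -0.15 over 6, 7, 4 and 5 measured genes, and these medians leave out genes under the floor on either array. The endothelial markers were split, with 4 higher, 3 lower and a mean of 0.10, and all were dim (control signals from 67.1 to 186). The leukocyte markers PTPRC, CD4 and SPI1 were under the floor in both pools. The B cell marker CD79B was above it in the control pool (55.3) and below it in the Bx pool (35.1), at least 1.52-fold lower, and the T cell marker CD3E went the other way (6.25 and 72.0), at least 1.69-fold higher. Both lie near the floor, where ratios have low precision. The 3' over 5' signal of 3 reference transcripts, which rises as RNA degrades, ran from 1.07 to 1.91 in the control and from 1.05 to 1.64 in the Bx pool.

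Signals of the respiratory chain genes were nearly alike in the 2 pools, with a small displacement toward the Bx pool. The median log2 ratio over the 88 measured genes was 0.06, a 1.04-fold difference, against 0.01 over all 10168 measured genes. The signal was higher in the Bx pool for 61 genes and lower for 27, or 69.3% higher, where 52.4% of all measured genes were higher and 47.6% lower. Among the 58 genes in the brightest quartile, 44 were higher (75.9%) and 14 lower, where 47.4% of all genes in that quartile were higher and 52.6% lower. At 1.5-fold, 2 of the 88 genes were higher in the Bx pool (2.27%) and 1 was lower (1.14%). Over all genes 4.11% were past that size on the higher side and 3.63% on the lower side. The members' shares were smaller, but 58 of the 88 lay in the brightest quartile, where 0.118% and 0.236% of genes were past it. Past a log2 ratio of 0.32 in either direction, 5 members were higher (5.68%) and 2 lower (2.27%), against 12.3% and 9.94% of all genes. These directions hold for the arrays as deposited. The 36 probe sets of the poly-A spikes, bacterial transcripts commonly added to the RNA before labelling, had a median log2 ratio of -0.22, 34 of them lower in the Bx pool, while the 27 of the hybridisation spikes had -0.05. Scaling the arrays to the poly-A spikes, an alternative chosen after seeing the data, raised every ratio by 0.22, so that lower ratios smaller than that changed sign. On that scale 84 of the 88 genes (95.5%) and 84.1% of all genes were higher in the Bx pool, with medians of 0.28 and 0.24. On the deposited scale no member reached 2-fold, a size that 0.639% of all genes passed on the higher side and 0.423% on the lower.

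**Figure D1:**
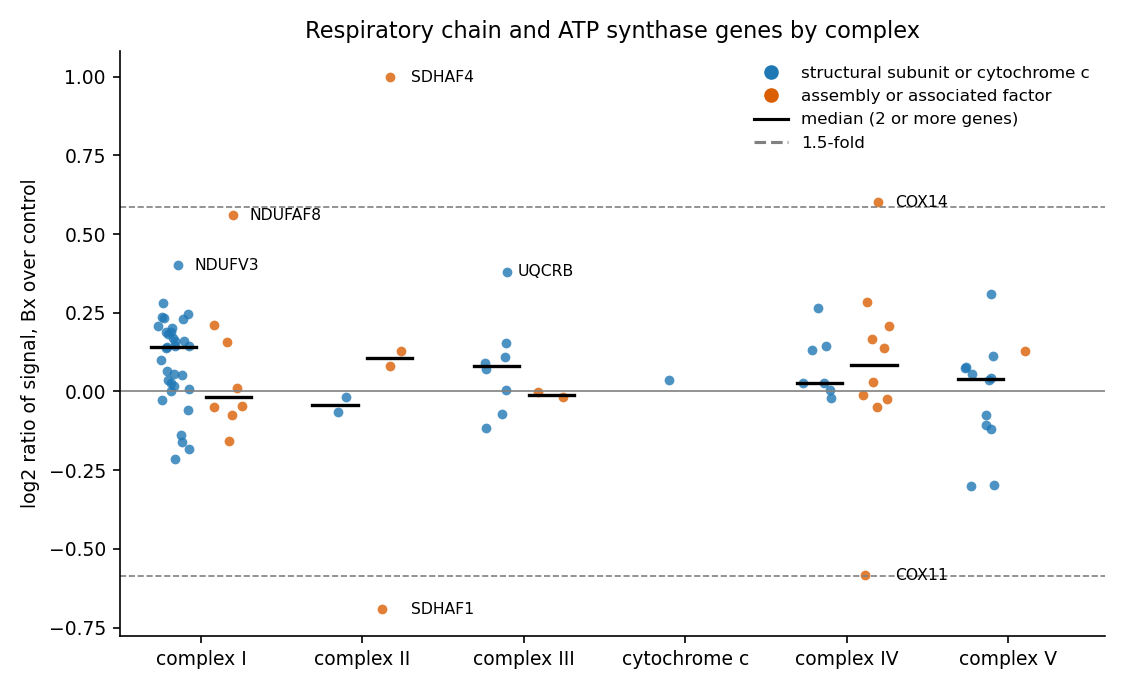
Log2 ratio of signal, Bx over control (vertical axis), for each of the 88 measured genes, by complex (horizontal axis), with 1 array per pool. Points are genes, black bars are medians where a class holds at least 2 genes, and dashed lines mark 1.5-fold. Structural subunits lie between -0.30 and 0.40, while the points near or past the dashed lines are the assembly factors SDHAF4, SDHAF1, COX14, COX11 and NDUFAF8.

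Complex I, the entry point for electrons from NADH, had a higher median than complexes III, IV and V, except that complex III was higher when all probe sets of a gene were averaged (0.13 against 0.055) and when _x_at and _s_at probe sets, which can match several transcripts, were left out (0.10 against 0.09). All 33 of its structural subunits on the array were measured. The median log2 ratio was 0.14 (1.103-fold) with an SD of 0.14 over genes, and 27 of the 33 were higher in the Bx pool. The values spread from -0.21 to 0.40, and 0 of the 33 were past 1.5-fold. Of the 33, 29 lay in the brightest quartile of genes, where 47.4% were higher in the Bx pool. In that quartile 0.118% were past 1.5-fold higher and 0.236% lower. For the counts by part and by complex below, the share of all measured genes that were higher was 52.4%. The single differences were thus small, like the SD of 0.15 over the brightest genes, and most went 1 way.

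Most of the core subunits carry the flavin and iron-sulfur centres that lead electrons to ubiquinone. Of the 6 measured, 5 were higher in the Bx pool, NDUFS3 among them by a log2 ratio of only 0.009. NDUFS7, the iron-sulfur subunit next to the ubiquinone site, went from 2369 (control) to 2875 (Bx) (1.21-fold, log2 ratio 0.28). NDUFS8, another iron-sulfur subunit, went from 3252 to 3596 (log2 ratio 0.15). NDUFV2, beside the flavin subunit, went from 2746 to 2943 (0.10). The flavin subunit NDUFV1, where NADH delivers its electrons, was at 3256 and 3382 (0.06), and NDUFS3 was level at 931 and 937. NDUFS1, the largest iron-sulfur subunit, was the core gene with the lower signal in the Bx pool, at 5473 and 4816 (1.14-fold lower, log2 ratio -0.18). Its next probe set had -0.11 and a dimmer one 0.05, so its 3 probe sets did not all go 1 way.

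The accessory subunits surround the core and stabilise it. Of 27, 22 were higher in the Bx pool, with a median log2 ratio of 0.14. NDUFV3, at the NADH-binding end, had the largest ratio of any structural subunit measured, with signals of 2583 and 3408 (1.32-fold, log2 ratio 0.40, on its only probe set). The brightest quartile of all genes, to which it belongs, held 1.14% of genes above a log2 ratio of 0.32 and 2.28% below -0.32, and NDUFV3 was the 1 member of that quartile above it, with 0 below. NDUFA10 went from 4599 to 5452 (0.25), NDUFA11 from 5527 to 6518 (0.24), NDUFB6 from 2621 to 3078 (0.23) and NDUFB10 from 6921 to 8117 (0.23), all subunits of the membrane arm. NDUFA8, on the intermembrane face, went from 3596 to 4149 (0.21), and NDUFB3 from 2662 to 3059 (0.20). The next probe set of NDUFB3 had 0.13, but 2 dim ones had -0.44 and -0.27, so that its mean over 4 was -0.10. NDUFA13 and NDUFA7 likewise had probe sets that went opposite ways, with 0.18 and -0.35 for NDUFA13, and with 0.16 and -0.17 on bright and -0.27 on dim probe sets for NDUFA7.

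A second set of accessory subunits was level or lower. NDUFA6 was at 4503 and 4507, NDUFA1 at 4408 and 4466, and NDUFB5 at 5700 and 5807, all within 1.02-fold. On the lower side were NDUFA9, of the ubiquinone module, with 4061 and 3637 (log2 ratio -0.16), NDUFS4, an accessory subunit of the matrix arm, with 841 and 764 (-0.14), and NDUFA12 with 14127 and 13554 (-0.06). The lowest complex I ratio was that of NDUFS5, at -0.21, but its signals of 119 and 103 lie in the dimmest quartile, where the SD over genes was 0.49.

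By position, the membrane arm, which pumps protons, had a median log2 ratio of 0.17 over 17 accessory subunits, 15 of them higher in the Bx pool. The matrix arm, which oxidises NADH, had a median of 0.10 over 15 subunits, 11 of them higher. The 2 ranges overlapped almost wholly, from -0.21 to 0.25 and from -0.18 to 0.40. NDUFAB1, the acyl carrier protein that sits in both arms, had 0.14.

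The complex I assembly factors were evenly split. Their median was -0.02 over 8 measured genes, 4 higher and 4 lower. NDUFAF8 went from 732 to 1078 (1.47-fold, log2 ratio 0.56, 1 probe set), just under the 1.5-fold limit. NDUFAF4 went from 1757 to 2035 (0.21) and its 3 measured probe sets were all higher (mean 0.20 ± 0.12, SD). NDUFAF6, another assembly factor, was at 701 and 782 (0.16). NDUFAF1, an early membrane-arm factor, was level at 3402 and 3428. NDUFAF5 was at 1071 and 960 (-0.16), with a dimmer probe set at 0.10, and NDUFAF2, NDUFAF3 and NDUFAF7 lay between -0.07 and -0.05.

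**Figure D2:**
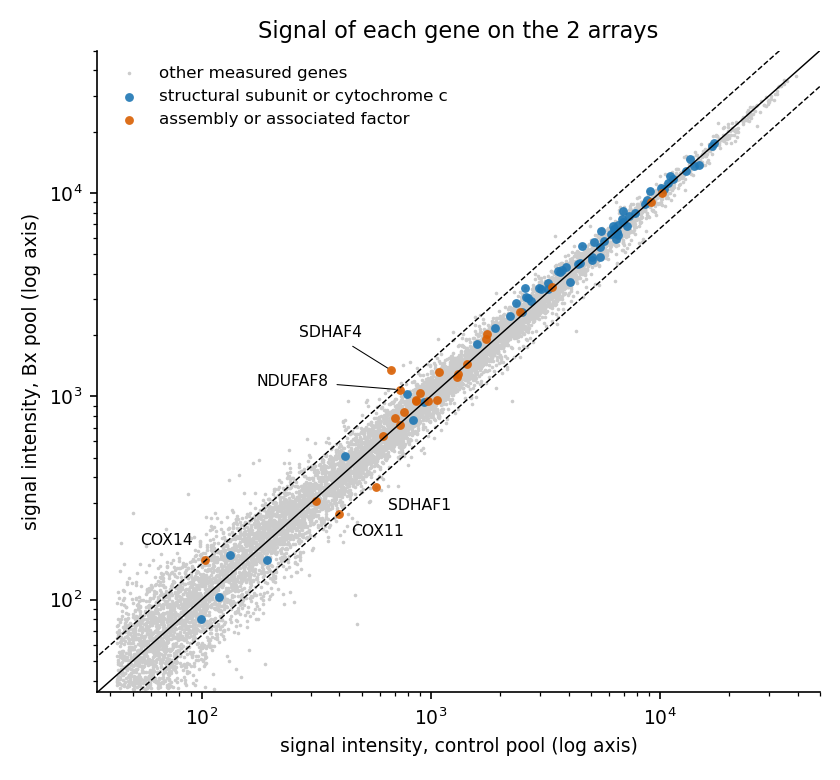
Signal intensity on the control array (horizontal, log axis) and on the Bx array (vertical, log axis) for every measured gene, with respiratory chain and ATP synthase genes in colour. The solid line marks equal signal and the dashed lines 1.5-fold. Structural subunits lie close to the solid line, 54 of 63 of them in the brightest quartile, while the 5 labelled assembly factors lie near or beyond the dashed lines at signals of at most 1343.

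Complex II, succinate dehydrogenase, links the citric acid cycle to the chain and is made only of nuclear-encoded subunits. Both measured subunits differed by under 1.1-fold: SDHA, the flavin-binding catalytic subunit, was at 5501 and 5439 (log2 ratio -0.02), and SDHD, a membrane anchor, at 7202 and 6877 (-0.07). A dim second probe set of SDHD went the other way, at 61.7 and 74.0 (0.26). The assembly factors of complex II held the highest and the lowest ratio of all 88 genes. SDHAF4, which binds flavin-loaded SDHA before it joins SDHB, went from 673 (control) to 1343 (Bx), which is 1.997-fold (log2 ratio 0.998). Its next probe set went from 268 to 496 (0.89), so the mean of the 2 was 0.94 ± 0.08 (SD), and a further probe set was under the floor on both arrays. SDHAF1, a factor for iron-sulfur insertion into SDHB, went the other way, from 577 to 357 (1.61-fold lower, log2 ratio -0.69), on its only probe set. With scaling to the poly-A spikes it was at -0.47, inside the 1.5-fold limit, and SDHAF4 at 1.22.

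The remaining factors of complex II differed little. SDHAF2, which attaches flavin to SDHA, was at 1750 and 1914 (log2 ratio 0.13), and its 3 probe sets were all higher (mean 0.31 ± 0.28, SD). SDHAF3, which acts with SDHAF1 on SDHB, was at 2466 and 2609 (0.08). The factors that act on SDHA (SDHAF2 and SDHAF4) were thus both higher, while those that act on SDHB (SDHAF1 and SDHAF3) went opposite ways, and SDHB itself was not analysed here.

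Complex III passes electrons from ubiquinol to cytochrome c. Its 8 structural subunits were all measured, with a median log2 ratio of 0.08, and 6 were higher in the Bx pool. UQCRB, a small accessory subunit, went from 786 to 1023 (1.30-fold, log2 ratio 0.38), and its other 2 probe sets had 0.74 and 0.01. UQCRC2, a core protein, went from 3035 to 3375 (0.15), and its 2 measured probe sets differed by little (SD 0.01). UQCR10 was at 13570 and 14634 (0.11), with 0.11 on the next probe set and 1.02 on a dim one (53.8 and 109). UQCR11 and UQCRQ had log2 ratios of 0.09 and 0.07, and the hinge protein gene UQCRHL was level at 10457 and 10497. The lower pair were UQCRFS1, the Rieske iron-sulfur protein that takes electrons from ubiquinol, with 5086 and 4691 (-0.12), and UQCRC1, the other core protein, with 5065 and 4816 (-0.07). The second probe set of each went the other way, at 0.58 for UQCRFS1, on signals of 45.1 and 67.2, and at 0.15 for UQCRC1, on 696 and 774. The assembly factors UQCC1 (1448 and 1447) and UQCC3 (736 and 726) were level.

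Cytochrome c, the soluble carrier between complexes III and IV, was level on its brighter probe set, with CYCS at 11430 and 11723 (log2 ratio 0.04). Its next probe set went from 3114 to 3736 (0.26), so the mean of the 2 was 0.15 ± 0.16 (SD).

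In complex IV, cytochrome c oxidase, the 7 measured structural subunits had a median log2 ratio of 0.03. Of these, 5 differed by under 1.1-fold. COX4I1, the regulatory subunit IV, was at 12987 and 12787 (log2 ratio -0.02), NDUFA4 at 16944 and 16996, COX6C at 17254 and 17577 (0.03) and COX7C at 7771 and 7923 (0.03). A dim probe set of COX7C had 0.61, on signals of 157 and 239. COX6A1 was at 11051 and 12115 (0.13), although a dim probe set of it had -0.43. COX8A, at 3688 and 4073, had 0.14. COX5A had the highest ratio, at 423 and 509 (0.27), and 0.14 on its other probe set. COX7B was below background in the control (23.6) and just above it in the Bx pool (38.1), so no fold is given.

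The assembly factors of complex IV had log2 ratios from -0.58 to 0.60 over 10 genes (SD 0.30, against 0.10 over the 7 subunits). They were also dimmer, with 2 of the 10 in the brightest quartile of genes, against 6 of the 7 subunits. The 2 spreads are thus not compared at like brightness. COX14, which acts with newly made COX1 protein, went from 104 to 157 (1.52-fold, log2 ratio 0.60, 1 probe set), just past the 1.5-fold limit and in the dimmest quartile of genes, where the SD was 0.49. COX11, which delivers copper to COX1, went from 397 to 265 (1.498-fold lower, log2 ratio -0.58, 1 probe set), just short of that limit. It lay in the next dimmest quartile, where the SD was 0.31. After median centring, quantile normalization or loess on brightness COX14 was inside the limit and COX11 past it. COX10, the haem O synthase, went from 1082 to 1317 (0.28) with all 3 probe sets higher (mean 0.19 ± 0.13, SD). COX15, which converts haem O to haem A, was at 865 and 953 (0.14), COX16 at 896 and 1035 (0.21) and COX20, a chaperone of COX2, at 860 and 964 (0.17). The copper chaperone COX17 (9134 and 9053), the membrane insertase COX18 (622 and 635), COX19 (1313 and 1293) and COX7A2L (10280 and 9944), which joins complexes III and IV in supercomplexes, lay between -0.05 and 0.03.

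In complex V, the ATP synthase, the 12 measured structural subunits had a median log2 ratio of 0.04, 7 of them higher in the Bx pool. In the catalytic F1 part, the beta subunit ATP5B, which holds the catalytic sites, was at 8788 and 9250 (log2 ratio 0.07). The alpha subunit ATP5F1AZ was at 6415 and 5905 (-0.12, and whether its probe set also matches the related ATP5F1AW was not tested), the gamma subunit ATP5C1, the rotating shaft, at 6548 and 6222 (-0.07), and the epsilon subunit ATP5E at 99.1 and 80.8 (-0.30). The F1 genes were thus lower in 3 of 4 cases, though ATP5E lies in the dimmest quartile. In the peripheral stalk, which holds F1 still, ATP5PB (10857 and 11175), ATP5H (10185 and 10591) and ATP5O (7315 and 7726) had 0.04, 0.06 and 0.08. The fourth stalk gene, ATP5J (coupling factor 6), was lower, with -0.30 on signals of 192 and 156 in the dimmest quartile, and had 0.51 on its next probe set. The 4 stalk genes had a median of 0.05 and a mean of -0.03. All 5 probe sets of ATP5O were higher, with a mean of 0.16 ± 0.17 (SD).

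Subunit c, which forms the rotating ring in the membrane, is encoded by several genes that in mammals give the same mature protein. The 2 that were measured went opposite ways by small amounts: ATP5G1 from 6879 to 7435 (log2 ratio 0.11, and 0.24 on a dimmer probe set) and ATP5G3 from 14836 to 13771 (-0.11). ATP5G2 was below background in the control (signal 14.6) and at 80.2 after bursectomy, which is at least 1.88-fold higher against the control floor, on its only probe set. Ratios at such low signals have low precision, and 11.5% of genes in the dimmest quartile were past 1.5-fold higher. Of the remaining subunits, ATP5I was at 8606 and 8824 (0.04). ATP5J2 had 0.31 on signals of 133 and 165, and its 5 probe sets averaged 0.17 ± 0.46 (SD). ATP5S, coupling factor B, was at 763 and 833 (0.13).

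**Figure D3:**
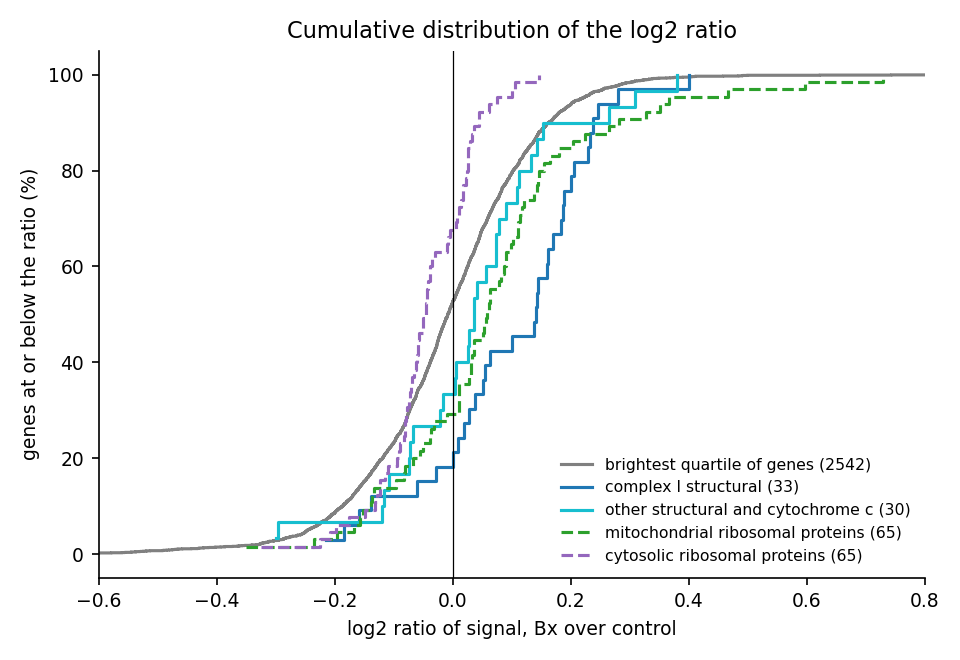
Percentage of genes at or below each log2 ratio of Bx over control, for the structural subunits of complex I, the other structural subunits with cytochrome c, mitochondrial and cytosolic ribosomal proteins, and the brightest quartile of all genes (number of genes in brackets). The complex I curve lies furthest to the right around its median of 0.14, mitochondrial ribosomal proteins have a median of 0.06 and cytosolic ribosomal proteins one of -0.05.

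Structural subunits and assembly factors differed in spread. The log2 ratios of the 63 measured structural subunits and cytochrome c had an SD of 0.15 over genes, and those of the 25 assembly and associated factors an SD of 0.33. On the brightest probe sets as deposited, the 3 genes past 1.5-fold (SDHAF4, COX14 and SDHAF1) and the 2 just inside it (COX11 and NDUFAF8) were all assembly factors. That is 2 higher and 1 lower of 25, against 4.11% and 3.63% of all genes and against 11.5% and 11.4% in the dimmest quartile, where COX14 lies. The shares were 4.17% and 2.05% in the second dimmest quartile, where SDHAF1 lies, and 0.669% and 0.826% in the second brightest, where SDHAF4 lies. The SDHAF4 ratio was the highest of the 2542 genes of its quartile. Without _x_at and _s_at probe sets, structural subunits were past 1.5-fold too. UQCRB was then higher (0.74), and NDUFA2 (-0.72) and NDUFA11 (-0.73) were lower. The assembly factors were also dimmer: 4 of 25 lay in the brightest quartile, against 54 of 63 structural genes. Within the next quartile, which held 16 assembly factors, their SD was 0.28, against 0.21 over all genes of that quartile. In the brightest quartile it was the other way, with an SD of 0.055 over 4 assembly factors, 0.12 over 54 structural genes and 0.15 over all genes. Of the 16, SDHAF4 and NDUFAF8 were the 2 beyond 0.32, both higher, against 5.70% of genes of their quartile higher and 4.76% lower. The interquartile range of the 16 ratios ran from -0.02 to 0.21, against -0.11 to 0.14 over all genes of that quartile. Their SD of 0.28 includes SDHAF4 at 0.998, and was not computed without that gene. How much of the wider spread came with the lower signal was not tested beyond this.

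A list of assembly factors and associated genes outside the symbol rule, ATPIF1 and USMG5 among the latter, was also taken. Its 25 measured genes had a median of 0.12 on the log2 scale, 17 of them higher in the Bx pool. NUBPL, which delivers iron-sulfur clusters to complex I, went from 194 to 314 (1.62-fold, log2 ratio 0.70), and its 2 probe sets were both higher. ATPAF1, a chaperone of the F1 beta subunit, went from 1034 to 1463 (0.50), on 5 probe sets that went both ways. On the lower side, TMEM70, needed to build the ATP synthase ring, was at 1282 and 1051 (-0.29), with both probe sets lower, and CMC2 at 1299 and 1080 (-0.27), with probe sets that went both ways. In all, 1 of these 25 genes was past 1.5-fold higher and 0 were past 1.5-fold lower, against the 4.11% and 3.63% of all genes.

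Genes that feed or serve the chain had medians close to that of all genes. The ubiquinone synthesis and electron donor list had -0.01 over 17 measured genes, with CHDH, choline dehydrogenase, at 68.0 and 118 (log2 ratio 0.80), COQ4 at 0.27, PDSS1, which makes the ubiquinone tail, at -0.25 and COQ8A at -0.22. The list for mitochondrial DNA upkeep and biogenesis had 0.01 over 12 measured genes. TFAM, which packages and transcribes mitochondrial DNA, was level at 4326 and 4331, TFB1M was at 0.28, POLG, the mitochondrial DNA polymerase, at 0.23, GABPB1, part of the NRF2 factor, at -0.24 and TFB2M at -0.15, and PPARGC1A was under the floor on both arrays. PPARGC1B, a related coactivator, was above the floor in the control pool (67.5) and below it in the Bx pool (11.0), at least 1.85-fold lower against the Bx floor, at signals where ratios have low precision. The list for adenine nucleotide and phosphate exchange had -0.03 over 8 measured genes, with CKMT1B, a mitochondrial creatine kinase, at 47.9 and 81.0 (0.76), VDAC2 at 0.03, VDAC1 at -0.26 and the phosphate carrier SLC25A3 at 8194 and 7205 (-0.19). The list for mitochondrial dynamics and cristae had -0.03 over 12, with the fission GTPase DNM1L at 449 and 603 (0.42, 5 probe sets all higher), CHCHD6 at 0.30, MFN1 at -0.23 and APOOL at -0.13. At 1.5-fold, 2 of the 49 measured genes of these 4 lists were higher (CHDH and CKMT1B) and 0 were lower, against 4.11% and 3.63% of all genes, so their share was near the background.

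A displacement of like size was seen in another nuclear-encoded mitochondrial family. For mitochondrial ribosomal proteins (symbols MRPL or MRPS and a number) the median was 0.06 over 65 measured genes, 46 of them higher in the Bx pool, or 70.8%. Cytosolic ribosomal proteins (RPL or RPS and a number, close paralogues included) had a median of -0.05 over 65, with 21 higher, or 32.3%, and proteasome subunits one of -0.02 over 30, with 13 higher. Over all measured genes 52.4% were higher, and 47.4% in the brightest quartile. That quartile held 63 of the 65 cytosolic ribosomal genes, 36 of the 65 mitochondrial ones and 24 of the 30 proteasome genes, so the families are not compared at like brightness. These families were chosen for comparison after the values of the respiratory chain genes had been seen. With 1 array per group no test of a difference between the families was possible, and the displacement is not shown to be particular to the respiratory chain.

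**Figure D4:**
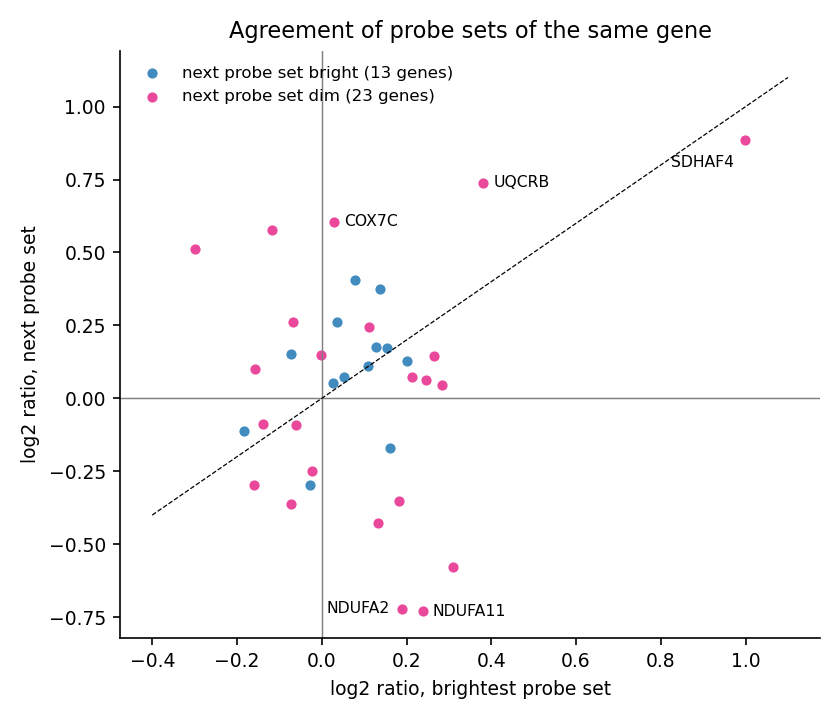
Log2 ratio of Bx over control on the brightest probe set (horizontal axis) and on the next measured probe set (vertical axis) of the 36 genes with at least 2. A next probe set is called bright where its signal is above 484 (control) and 498 (Bx), the 75th percentile of each array, and the dashed line marks equal ratios. Of the 13 genes with a bright next probe set 11 went the same way on both, and of the 23 with a dim one 13 did.

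Probe sets of the same gene gave a check on the measurement, though not on the birds. For 24 of the 36 genes with at least 2 measured probe sets, the brightest and the next went the same way (66.7%, against 57.9% over 4870 genes). Where the next probe set was bright as well, this held for 11 of 13 (84.6%, against 59.8% over 1688 genes), 9 of them higher in the Bx pool on both and 2 lower, and the median difference between the 2 ratios was 0.07. Where it was dim, it held for 13 of 23 (56.5%, against 56.9%), and the median difference was 0.26. Several of the bright pairs, such as those of NDUFB3, NDUFS6 and UQCR10, have names that differ only in the suffix. Such probe sets may share probes, so their agreement may be partly built in, which was not tested. Among the complex I subunits NDUFA2 and NDUFA11 had the widest gaps, with 0.19 and 0.24 on bright probe sets and -0.72 and -0.73 on dim ones whose signals were 78.1 and 47.4, and 110 and 66.1. NDUFS6 was higher on all 3 of its measured probe sets (mean 0.32 ± 0.17, SD), and so was NDUFB8 on both of its own (0.06 ± 0.02). NDUFB4 was lower on all 3 of its own (-0.22 ± 0.16), as were NDUFA9 (-0.23 ± 0.10) and NDUFS4 (-0.11 ± 0.04) on both of theirs. Of 13 complex I structural subunits with at least 2 measured probe sets, 6 went 1 way on all (46.2%), 3 higher and 3 lower. Over all genes 2216 of 4870 did so (45.5%), 1241 higher and 975 lower, so the share in complex I was near the background.

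**Figure D5:**
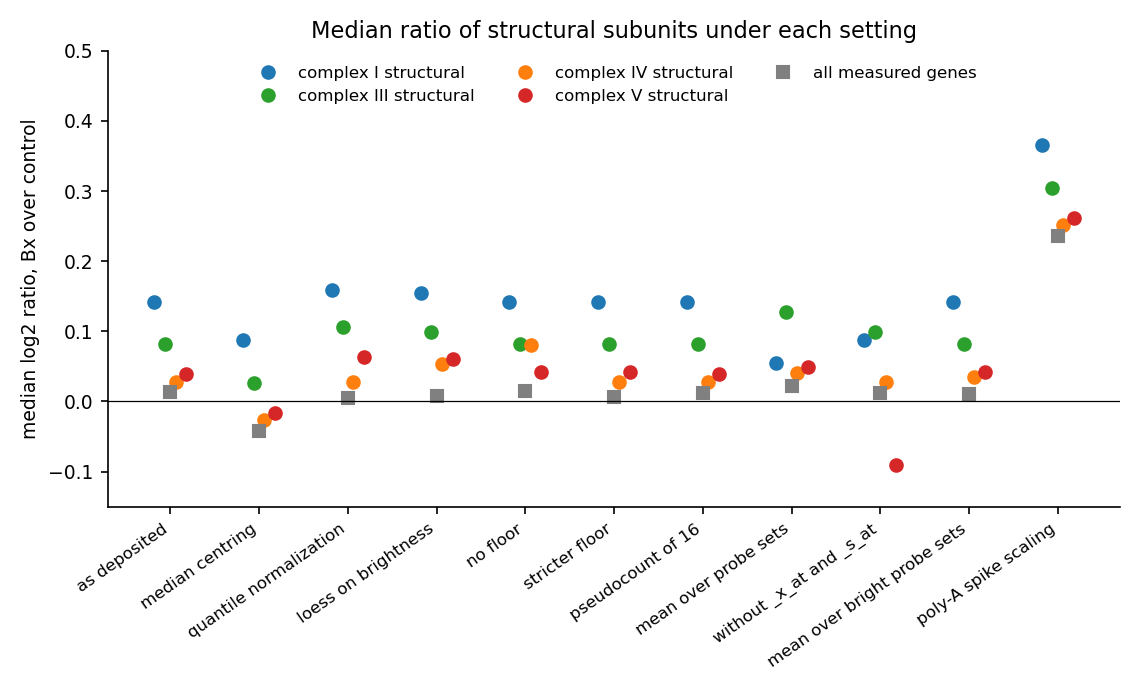
Median log2 ratio of Bx over control (vertical axis) of the structural subunits of complexes I, III, IV and V and of all measured genes, under each way of scaling, filtering or summarising the probe sets (horizontal axis). The complex I median runs from 0.055 to 0.36, the highest with scaling to the poly-A spikes, where all genes are at 0.24, and complexes IV and V are at -0.03 and -0.02 when the arrays are centred on their medians, where all genes are at -0.04.

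The displacement is small beside the choice of scale. Centring the arrays on their medians moved all genes to a median of -0.04 and the 88 genes to 0.0053, with 46 of 88 higher (52.3%, against 42.3% of all genes), while the distance between the 2 medians stayed at 0.05. Under that centring complex I kept a median of 0.09 and complex III one of 0.03, and complexes IV and V were at -0.03 and -0.02. Scaling to the poly-A spikes left that distance unchanged, since it moves all genes alike. Taking the mean over all measured probe sets of a gene brought complex I to 0.055, and taking it over bright probe sets alone left it at 0.14.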

How the data were processed

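Total RNA (100 ng) of each pool was labelled with biotin in a 3' amplification and put on 1 array, per the labels' protocols. For each array the authors deposited a linear intensity per probe set, made with MAS5 per the submitters' processing notes; its version and scaling target: not given in the sources used here. The mean without the lowest and highest 2% of these intensity values was 500.1 on both arrays, so a difference in total mRNA would not show in these ratios; scaling to the poly-A spikes was tried as well.

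Of 37693 chicken probe sets, 27166 had 1 gene symbol in the platform annotation at GEO, of older date, 177 had several and 10350 had none. Of the 90 members, 89 matched a gene ID in the RefSeq table of assembly GRCg7b, under the same symbol. The floor was the 95th percentile of 746 probe sets for other species. Signals were taken to log2 with no pseudocount. Genes named are those past 1.5-fold, the 4 highest and lowest per complex, all of complex II and cytochrome c, subunit isoforms, genes under the floor and genes whose probe sets went opposite ways with an SD above the pooled one, with the 2 highest and lowest of the neighbouring lists; further members were added once their values had been seen. The members and lists were chosen with earlier results of these data known. The number of arrays, 1 per group, limits the precision: an SD here is over genes or probe sets. Scripts used Python 3.11.15, pandas 2.3.3, numpy 2.4.6 and statsmodels 0.14.6 and were tested on simulated data.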

Additional observations from a re-analysis of the deposited data

How the results depend on the processing

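The count of members past 1.5-fold, 2 higher and 1 lower, was 1 higher and 2 lower after median centring, quantile normalization and loess on brightness (lowess fraction 0.3), where COX14 and COX11 crossed the limit. Over all genes the shares higher and lower were 4.11% and 3.63% as deposited and 3.24% and 4.35% after median centring. They were 3.56% and 3.89% after quantile normalization and 3.87% and 3.46% after loess. With no floor the count of members was 4 higher and 1 lower, against 10.9% and 10.3% of all genes. It was 1 and 0 with the stricter floor (75th percentile of chicken probe sets, 484 and 498), against 0.375% and 0.518%. The mean over bright probe sets, an alternative chosen after seeing the data, also gave 1 and 0, against 0.304% and 0.500%. A pseudocount of 16 gave 1 and 1, against 3.00% and 2.54%. Leaving out _x_at and _s_at probe sets gave 3 and 3, against 4.61% and 4.30%. The structural subunit UQCRB was among those higher, and NDUFA2 and NDUFA11 among those lower. The count was 5 and 2 at a log2 ratio of 0.32 (12.3% and 9.94% of all genes), and 0 and 0 at 2-fold (0.639% and 0.423%). SDHAF4 kept a log2 ratio between 0.89 and 0.998 under the other scaling, floor, pseudocount and probe set alternatives, and 1.22 with scaling to the poly-A spikes, while SDHAF1 and COX14 were not measured under the stricter floor. Median centring moved the median log2 ratio from 0.06 to 0.0053 over all members and from 0.06 to 0.0091 over structural subunits with cytochrome c. The complex I structural median moved from 0.14 to 0.055 with the mean over probe sets, and the complex V structural median from 0.04 to -0.091 without _x_at and _s_at probe sets. Scaling to the poly-A spikes, chosen after seeing the data, raised every ratio by 0.22. The count of members past 1.5-fold became 5 higher and 0 lower, against 10.3% and 1.43% of all genes. The structural subunits NDUFV3 and UQCRB were among the 5. Medians became 0.28 over all members, 0.29 over structural subunits with cytochrome c and 0.25 over assembly factors. Structural medians became 0.36, 0.30, 0.25 and 0.26 for complexes I, III, IV and V, and assembly factor medians 0.20, 0.33 and 0.31 for complexes I, II and IV. A median counted as moved when it shifted by more than the pooled SD between probe sets, 0.32, scaled to the number of genes. No paired analysis was possible because each group had 1 array. The depth of an array is not defined, and signals near the floor have ratios of low precision.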
